A study of Mus musculus with 2 samples.

Results

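The miR-466 and miR-467 families are groups of mouse microRNAs (miRNAs) that are numerous and rich in short repeats. Here they were followed in exosomes, small vesicles that cells release, isolated from the serum of tumour-bearing mice. Every miRNA on the array named miR-466 or miR-467 followed by a letter was taken, which gave 35 members of 1881 mouse miRNAs. There were 23 miR-466 and 12 miR-467 members, read by 98 probes. The families were chosen by their signals on these same arrays, where several members stood at the top of the ratios. The height of their ratios is therefore given as a description only, and nothing is supported with it.

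The study asked which exosomal miRNAs differ when mesenchymal stem cells of the bone marrow (BMSCs) are injected along with lung cancer cells. Its methods name C57BL/6 females, 6 weeks of age, as the hosts. In the LLC group the mice received 1000000 LLC-luciferase cells under the skin, which are Lewis lung carcinoma cells, a mouse lung cancer line, carrying a luciferase reporter. In the MSC+LLC group the mice received LLC-luciferase cells together with mouse BMSCs, so both groups carried the tumour and the reporter. Serum was taken when the mean tumour volume reached 200 mm3 (the labels say serum, the methods say plasma). Each group was represented by 1 array, and how many mice stood behind an array was not stated. There were thus no replicates and no test between the groups, and each difference below is a difference between 2 arrays, which lay on 1 slide, so group and position on the slide cannot be told apart. The errors given are standard deviations (SD) over the repeated spots of a probe on an array, which are technical and do not measure the spread between mice. Serum vesicles come from the mouse as well as from the injected cells, and more vesicles with a miRNA and more copies in each vesicle cannot be told apart.

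A miRNA is cut from a hairpin RNA, and either side of the hairpin can yield a mature miRNA, called the 5p or the 3p arm. Bases 2 to 8 of a mature miRNA, the seed, largely decide which messenger RNAs it binds. Most miR-466, miR-467, miR-669 and miR-297 hairpins of the mouse lie in a large cluster within an intron of Sfmbt2, a Polycomb group gene that is known for its role in the placenta. The cluster is special to rodents, and its miRNAs are known from embryonic stem cells and placenta. In the RefSeq gene table (GRCm38.p6), 37 of the 45 Mir466 and Mir467 genes lay within Sfmbt2 on chromosome 2, and 8 lay outside it on 6 chromosomes. For 34 of the 35 members the table held a matching gene name. Of the members, 14 were 3p arms, 15 were 5p arms, and 6 carried no arm in the name.

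RefSeq (GRCm38.p6) held the mature sequence of 6 members. These are all the members whose sequence could be shown. By the detection rule used here, a group of 4 is built on CA repeats and was found on the MSC+LLC array, and a group of 2 is rich in UG and was not. This split describes the 6 printed members only. Among all array miRNAs with a RefSeq sequence, 12 held U and G in alternation over 7 bases or more. Of those 12, 6 were found on the MSC+LLC array. Sequences run 5′ to 3′, with the seed in capitals.

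miR-466q: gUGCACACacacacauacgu
miR-467f: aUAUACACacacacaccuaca
miR-466i-3p: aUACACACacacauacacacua
miR-467g: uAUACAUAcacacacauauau
miR-466j: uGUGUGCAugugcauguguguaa
miR-466k: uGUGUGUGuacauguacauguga

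In the order printed, these lay at chr3:28419988-28420007 (plus strand, within Tnik), chr11:69635419-69635439 (minus strand, within Fxr2), chr13:17747552-17747573 (plus strand, within Cdk13), chr5:34732872-34732892 (minus strand, within Grk4), chr10:60960802-60960824 (plus strand, within no other gene) and chr3:85467396-85467418 (plus strand, within Gm31419). Whether they lie in introns or exons of these genes was not determined. All of them thus come from outside the Sfmbt2 cluster. The longest unbroken alternation of C and A was 12 bases in miR-466q and miR-467f, 11 in miR-466i-3p and 9 in miR-467g. The longest alternation of U and G was 9 bases in miR-466k and 7 in miR-466j. No pair of them shared a seed, and none of their seeds was found in another of the 1608 array miRNAs that had a RefSeq sequence. The other 29 members had none and could not be searched, so a seed shared with them would have been missed. Within the CA group the sequences were 5 to 7 edits (bases changed, added or removed) apart, miR-466j and miR-466k were 7 apart, and members of different groups were 12 to 16 apart. Whether a probe for a member also binds its near relatives was not tested.

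The arrays differed strongly in brightness, and this bears on each value below. Intensities were scaled to the 75th percentile of the probes found on both arrays, 2883 for LLC and 250.3 for MSC+LLC, and this raised every log2 ratio of MSC+LLC over LLC by 3.53. As read, the dimmest detected probe stood at 20.9 units for LLC and at 18.8 for MSC+LLC. A miRNA that was dim on the LLC array could therefore be seen on the other array only if its scaled ratio was high. As read, the control RNAs added at hybridization had a mean log2 ratio of 0.038 and those added at labelling had one of -1.32, against a median of -3.38 for the miRNAs. Markers of other sources had no common direction on the scaled log2 scale. Erythroid miRNAs (4 of 4 measured on both arrays) ran from -2.33 (miR-144-3p) to 1.66 (miR-486a-5p), and leukocyte and platelet miRNAs (3 of 4) from -2.25 (miR-142a-3p) to 0.14 (miR-223-3p). Hepatocyte miRNAs (2 of 3) ran from -0.32 to 0.78, skeletal muscle miRNAs (3 of 3) from 0.15 to 1.28 and mesenchymal stromal miRNAs (2 of 4) from 0.57 to 0.82, and all of these would lie below 0 without scaling. Their part in the members' values was not tested.

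On the LLC array 14 of the 35 members were detected, beside 26.7% of all miRNAs. On the MSC+LLC array 17 were detected, beside 13.7% of all miRNAs. More members were found on the dimmer array, whereas over all miRNAs the number went from 502 to 258. Since the families were chosen by their signals on these arrays, nothing is read from this contrast. By status, 11 members were found on both arrays, 6 with MSC+LLC alone, 3 with LLC alone and 15 on neither. Over all 1881 miRNAs, 240 were found on both, 18 with MSC+LLC alone, 262 with LLC alone and 1361 on neither. The 15 undetected members had 40 probes, which ranged from -6.15 to 11.7 units for LLC and from -2.77 to 8.22 for MSC+LLC. By probe, 14 were found on both arrays, 29 with MSC+LLC alone, 5 with LLC alone and 50 on neither. The same split over all probes of the array is not given here.

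**Figure D1:**
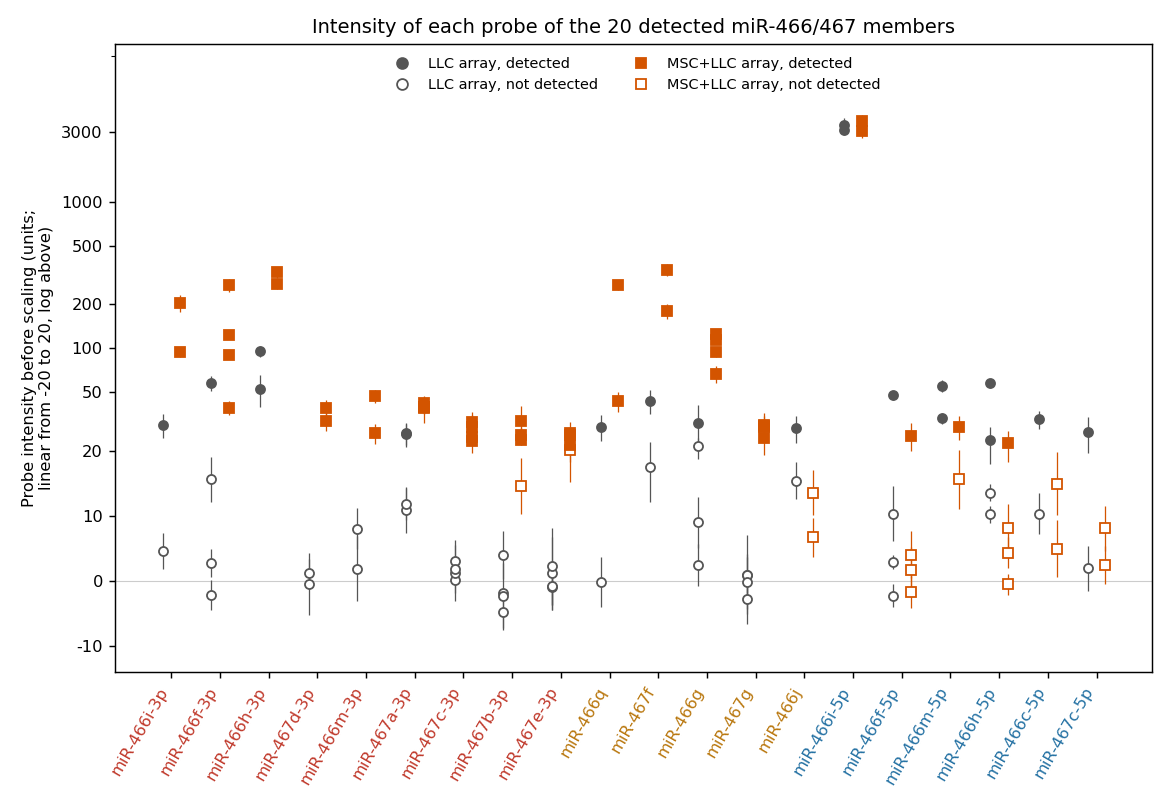
Intensity before scaling of every probe of the 20 detected members, on the LLC array (circles) and the MSC+LLC array (squares), with SD over spots; the vertical axis is linear up to 20 and logarithmic above, and the names are coloured by arm (red 3p, ochre no arm, blue 5p). The squares lie above the circles for the 3p members and for miR-466q, miR-467f, miR-466g and miR-467g, they coincide for miR-466i-5p, and they lie below the circles for the detected probes of the other 5p members and of miR-466j.

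Among the 3p arms, 9 of 14 were detected with MSC+LLC and 4 with LLC, beside 12.9% and 20.3% of all 3p arms. Of these members, miR-466h-3p, miR-466f-3p, miR-466i-3p and miR-467a-3p were measured on both arrays. The probes of miR-466h-3p read 52.9 ± 13.3 and 95.6 ± 8.68 on the LLC array (15 and 14 spots), and 276 ± 22.4 and 331 ± 29.7 on the MSC+LLC array (15 spots each). Both probes were brighter on the MSC+LLC array even before scaling, and the values with their SD did not overlap. After scaling, the log2 ratio was 5.91 and 5.32 for the probes and 5.61 ± 0.21 for their mean.

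The brightest probe of miR-466f-3p read 57.9 ± 6.57 with LLC and 271 ± 28.4 with MSC+LLC (7 spots each), a scaled log2 ratio of 5.75 ± 0.22. Its other 3 probes were not detected on the LLC array, at -2.19, 2.74 and 15.6, but read 39.1, 90.5 and 123 on the MSC+LLC array. The 4 probes thus pointed the same way. Hairpins of miR-466f exist in 4 gene copies, 3 of them within Sfmbt2, and the array cannot tell the copies apart.

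For miR-466i-3p, a CA-repeat miRNA from the hairpin within Cdk13, the brighter probe read 29.9 ± 5.55 with LLC and 203 ± 26.8 with MSC+LLC (15 spots each). The scaled log2 ratio was 6.29 ± 0.33, and before scaling it was 2.76. Its dimmer probe was detected on the MSC+LLC array only, at 94.6 ± 6.90 against 4.57 ± 2.74.

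All 5 miR-467 3p arms were detected on the MSC+LLC array, beside 12.9% of all 3p arms. Only 1 of them, miR-467a-3p, was detected on the LLC array. All 10 copies of its gene lie within Sfmbt2. Its 4 probes read 10.9, 11.8, 26.1 and 26.3 on the LLC array, where the last pair was detected in 5 of 7 spots each, and 39.9, 39.0, 40.0 and 42.0 on the MSC+LLC array. The scaled log2 ratio was 4.17 ± 0.20, and before scaling it was 0.65, the lowest of the 3p members measured on both arrays. This ratio came from that pair of probes alone. Set against the lowest detected signal on the LLC array, its other probes had scaled log2 ratios of at least 4.46 and 4.42. The other miR-467 3p arms were undetected on the LLC array, and their ratios are bounds, taken against the lowest detected signal there.

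By these bounds, miR-467d-3p was at least 19.5-fold, miR-467c-3p at least 14.8-fold, miR-467b-3p at least 14.7-fold and miR-467e-3p at least 13.4-fold higher on the scaled MSC+LLC array. The 3p arm of miR-466m was at least 19.4-fold higher, with probes at 26.3 ± 4.02 and 47.0 ± 4.89 on the MSC+LLC array against 1.86 ± 5.05 and 7.99 ± 3.18. These bounds owe much to the scaling. Without scaling all 5 shrank to between 1.17-fold for miR-467e-3p and 1.69-fold for miR-467d-3p. The probes of miR-467e-3p were close to the detection limit, at 20.2, 21.7, 25.5 and 26.2 on the MSC+LLC array, where the first did not pass it.

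Of the members with no arm in the name, miR-466q and miR-467f carry the longest CA repeats printed above. The detected probe of miR-466q read 29.0 ± 5.91 on the LLC array (13 spots, 11 of them well above background) and 269 ± 19.6 on the MSC+LLC array (15 spots). Its scaled log2 ratio of 6.74 ± 0.31 ranked first of the 240 miRNAs measured on both arrays, and before scaling it was 3.21. Its dimmer probe read -0.25 ± 3.87 and 43.5 ± 6.54.

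The probes of miR-467f read 17.5 ± 5.45 and 43.9 ± 8.22 on the LLC array, where only the second was detected, and 180 ± 22.1 and 344 ± 32.6 on the MSC+LLC array. The scaled log2 ratio was 6.50 ± 0.30, which ranked 3 of 240. Another CA-repeat member without an arm, miR-467g, was undetected on the LLC array, where its probes lay between -2.82 and 0.95. On the MSC+LLC array the same 4 probes read between 24.2 and 29.8, giving a bound of at least 15.4-fold, or 1.34-fold without scaling.

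For miR-466g, whose gene lies within Sfmbt2, the 4 probes lay between 2.44 and 30.7 on the LLC array, and only the brightest was detected. The same probes lay between 66.9 and 126 on the MSC+LLC array, all detected. The scaled log2 ratio of the detected probe was 5.56 ± 0.50, the widest error of the members measured on both arrays. Its other probes were left out of this ratio and had lower bounds of 5.20, 5.69 and 5.93.

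Neither of the UG-rich members printed above passed the detection rule used here on the MSC+LLC array. In the authors' deposited values, described below, miR-466j was listed above the floor in both groups, so its status depended on the rule. One probe of miR-466j was detected on the LLC array, at 28.5 ± 5.75 (12 of 14 spots well above background), and read 13.5 ± 3.51 on the MSC+LLC array, below detection. At that LLC signal a scaled log2 ratio under 2.93 could not have been seen, so no direction can be given. The other, miR-466k, was detected on neither array. The 29 members without a RefSeq sequence could not be classed as CA- or UG-rich.

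Of the 15 5p arms, the LLC array detected 6 and the MSC+LLC array 4, beside 240 and 106 of all 775 5p arms. On the MSC+LLC array this was 26.7% of the member 5p arms against 13.7% of all 5p arms. The member 5p arms, like the 3p arms, were thus detected more often than all arms of their class on both arrays. Nothing is read from this, since the families were chosen by their signals. The probes of miR-466i-5p, the other arm of the hairpin within Cdk13, read 3083 ± 229 and 3380 ± 375 on the LLC array (15 spots each) and 3044 ± 293 and 3579 ± 322 on the MSC+LLC array (14 spots each). The unscaled intensities of each probe overlapped in their SD between the arrays, a log2 ratio of 0.03. With scaling the log2 ratio was 3.56 ± 0.14 relative to the 75th percentile, and with the hybridization spike-ins as the scale it was -0.0060.

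For miR-466f-5p, miR-466m-5p and miR-466h-5p the direction depended on the scale. Each had 1 probe detected on both arrays. That of miR-466f-5p read 47.9 ± 3.29 with LLC and 25.4 ± 5.4 with MSC+LLC, that of miR-466m-5p read 55.5 ± 5.12 and 28.9 ± 5.39, and that of miR-466h-5p read 57.8 ± 4.29 and 22.6 ± 4.44. As read, all 3 were dimmer with MSC+LLC, by log2 ratios of -0.92, -0.94 and -1.35, but stood at 2.61 ± 0.32, 2.58 ± 0.30 and 2.17 ± 0.30 after scaling. The lowest scaled log2 ratios that could have been measured for them were 2.17, 1.96 and 1.91, so these values lie just above their floor and a lower ratio would not have been counted. Another probe of miR-466m-5p (33.4 with LLC, 15.7 with MSC+LLC) and of miR-466h-5p (23.5 and 8.18) was detected with LLC only. These probes were left out of the ratios. The 5p arms miR-466c-5p and miR-467c-5p were detected on the LLC array only, at 32.7 ± 4.5 and 26.8 ± 7.22, and scaled log2 ratios under 2.73 and 3.01 could not have been seen for them. None of the 5 miR-467 5p arms was detected on the MSC+LLC array, where 13.7% of all 5p arms were, so nothing is read from this count.

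**Figure D2:**
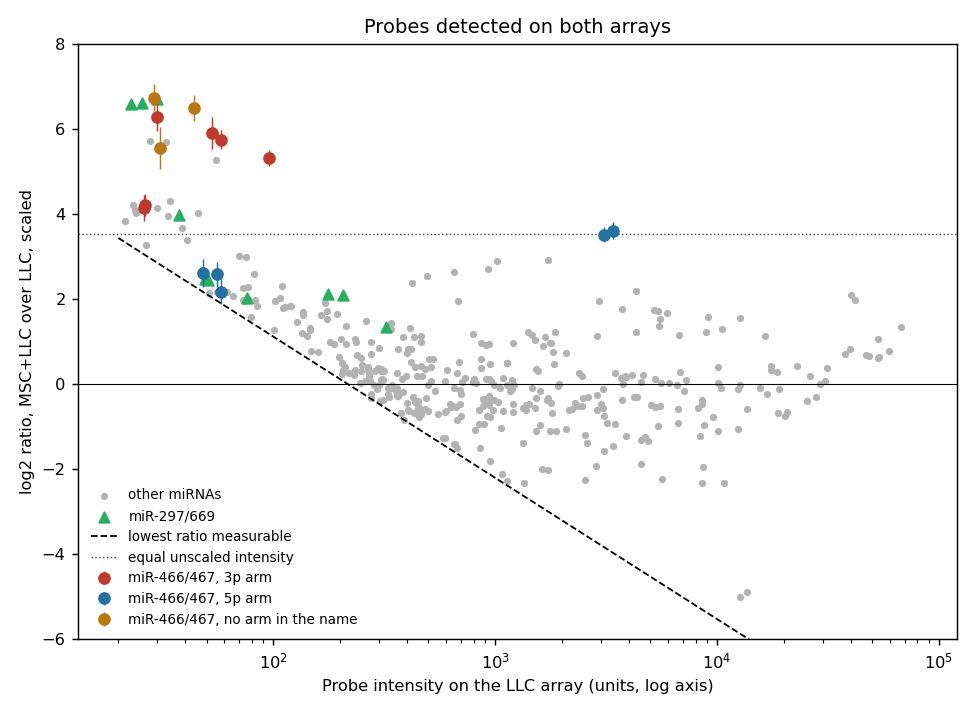
Scaled log2 ratio of MSC+LLC over LLC against intensity on the LLC array (log axis) for every probe detected on both arrays, with members coloured by arm (bars are SD over spots), miR-297 and miR-669 as triangles and all others in grey. The dashed line is the lowest ratio measurable at each LLC intensity and the dotted line, at 3.53, marks equal unscaled intensity: the 3p members and those with no arm lie above the dotted line, the miR-466i-5p probes lie on it, and the other 5p members lie below it, close to the dashed line.

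Counted over the families, the scaled ratio or its bound was at least 2-fold higher with MSC+LLC for 17 of the 20 detected members. Of all detected miRNAs, 16.0% were at least 2-fold higher. The ratio or bound was at least 2-fold lower for 0 members, beside 5.38% of all detected miRNAs. Without scaling, 6 members were at least 2-fold higher and 1 was lower, beside 11 and 388 of all 520 detected miRNAs. After scaling, each of the 11 members with a measured ratio was higher by 2-fold or more, beside 27.1% of all miRNAs so measured, although 3 of them, all 5p arms, were dimmer as read. The members were chosen from this very contrast, and most were too dim on the LLC array to be measured as lower, so nothing is read from these counts. The median scaled log2 ratio of the 11 was 5.56, against 0.15 over all 240 miRNAs measured on both arrays and 0.10 without the members.

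The order of the ratios is the same whichever single factor scales an array. Members were 11 of the 240 miRNAs measured on both arrays, and they took 7 of the 10 highest ratios and 11 of the highest 30. Before any scaling, 14 of the 240 miRNAs were brighter on the MSC+LLC array. Of these, 8 were members: the 7 measured members that are 3p arms or carry no arm in the name, and 1 of the 4 measured 5p arms, miR-466i-5p, whose excess was smaller than its SD. The families were chosen by these same ratios, and most members were too dim on the LLC array for a low ratio to be measured. Nothing is therefore read from these ranks and counts.

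**Figure D3:**
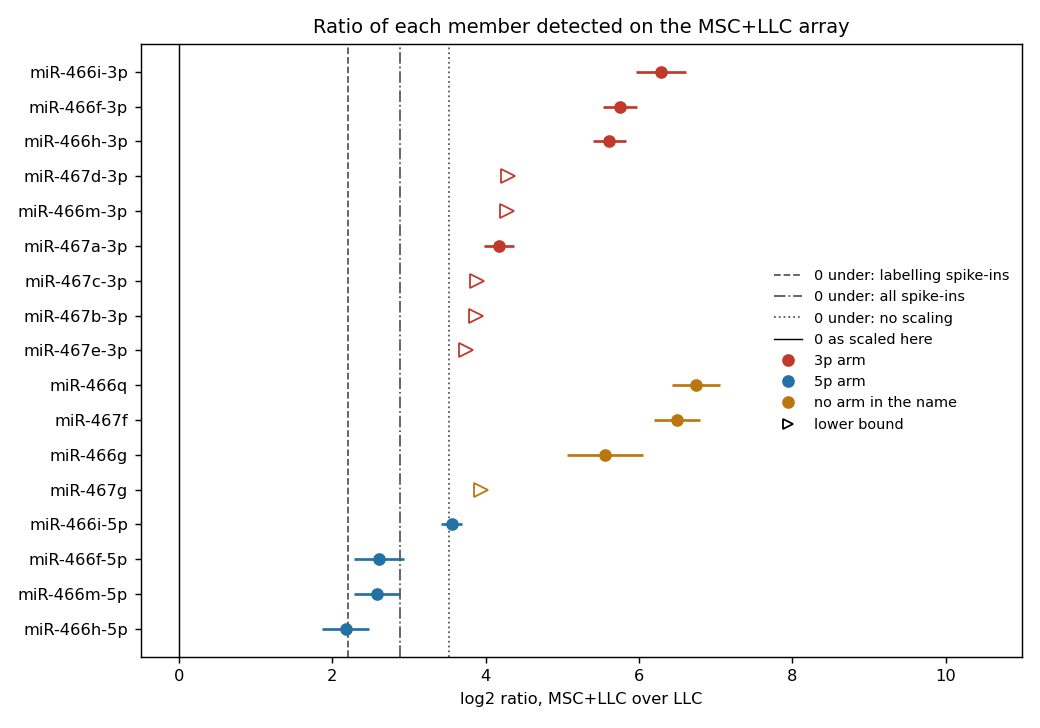
Scaled log2 ratio of MSC+LLC over LLC for the 17 members detected on the MSC+LLC array, with SD over spots, or lower bound (open triangles), coloured by arm. Vertical lines mark where 0 would lie under other scales: the 3p members and those with no arm stay to the right of all of them, whereas miR-466f-5p, miR-466m-5p and miR-466h-5p fall to the left of the lines for all spike-ins and for no scaling.

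Comparing the arms of a hairpin takes the scale out, since one factor per array cancels in the difference. There were 12 hairpins with both arms on the array. Both arms were measured on both arrays for miR-466f, miR-466h and miR-466i, and the 3p arm had the higher ratio in each. The log2 ratio of the 3p arm exceeded that of the 5p arm by 3.14 ± 0.39 for miR-466f, by 3.44 ± 0.37 for miR-466h and by 2.73 ± 0.36 for miR-466i, or 8.84-, 10.8- and 6.64-fold. These differences were several times the SD over spots. For miR-466m the bound of the 3p arm exceeded the ratio of the 5p arm by 1.69.

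For the miR-467 hairpins a to e no such difference could be taken, since no 5p arm had a ratio. In all 5 the 3p arm was detected on the MSC+LLC array and the 5p arm was not, which compares different probes on 1 array and not ratios between arrays. Over all miRNAs, 12.9% of 3p arms and 13.7% of 5p arms were detected there. For miR-466d, miR-466l and miR-466n neither arm was detected on the MSC+LLC array. Over the whole array, the median scaled log2 ratio was 0.37 for 86 3p arms and -0.09 for 104 5p arms measured on both arrays.

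**Figure D4:**
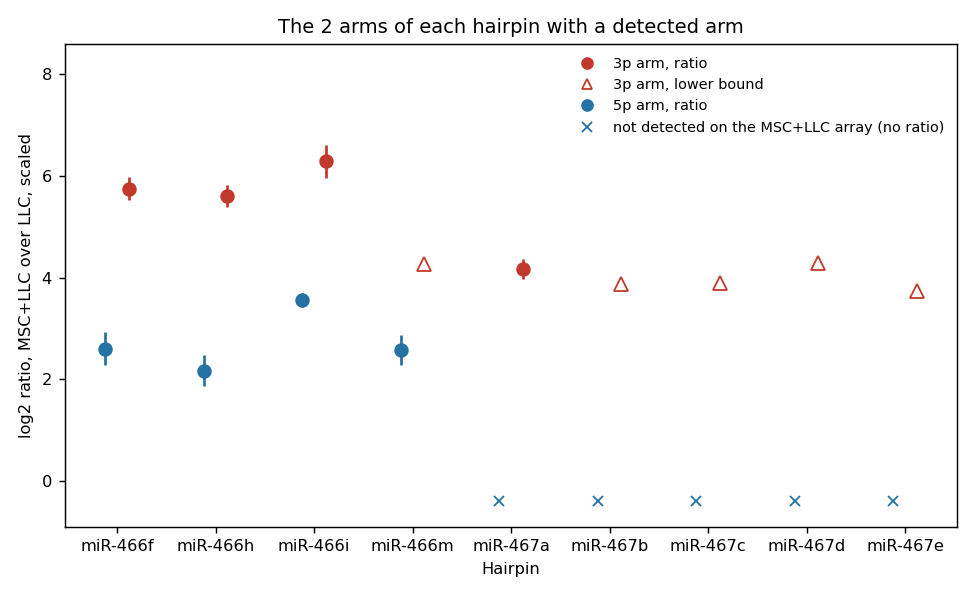
Scaled log2 ratio of MSC+LLC over LLC for the 3p (red) and 5p (blue) arm of the 9 hairpins with a detected arm, as measured (circles, SD over spots) or as a lower bound (open triangles); crosses mark arms below detection with MSC+LLC, and their height has no meaning. The 3p arm stands above the 5p arm for miR-466f, miR-466h, miR-466i and miR-466m, and the miR-467 hairpins have a ratio or bound for the 3p arm only, so their arms are not compared.

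Members of the Sfmbt2 cluster and members from elsewhere were both among the highest 10 ratios. The 5 measured members whose named genes all lie within Sfmbt2 had a median scaled log2 ratio of 4.17, and the 4 from outside it had 6.39. Within an arm class the order was the same. The 5p arms stood at 2.17 (miR-466h-5p) and 2.58 (miR-466m-5p) within Sfmbt2 and at 3.56 (miR-466i-5p) outside it. The 3p arms stood at 4.17 (miR-467a-3p) and 5.61 (miR-466h-3p) within it and at 6.29 (miR-466i-3p) outside. Those with no arm stood at 5.56 (miR-466g) within it and at 6.50 (miR-467f) and 6.74 (miR-466q) outside. For miR-467a-3p, miR-466g and miR-467f, probes undetected on the LLC array were left out of these ratios. Some of those probes had lower bounds above the ratio given, up to 4.46, 5.93 and 6.63. With 1 or 2 members in each class, and 2 of these 5p values near their floor, this is a description only.

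The CA repeat was rare among the array miRNAs with a RefSeq sequence. The run CACACACA, read on the given strand and counted once per miRNA, stood in 4 of 1608 sequences (0.249%), and these were the 4 CA-group members printed above, all detected on the MSC+LLC array. The shorter run CACACA, which holds every sequence with the longer one, stood in 12 (0.746%), and 6 of these were detected on that array. UGUGUG stood in 25 (1.55%), and 7 of these were detected there. A run is a description of the letters, and the 29 members without a RefSeq sequence are not in these counts.

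Outside the families, miR-574 carries both kinds of run on opposite arms of the same hairpin, at chr5:64970328-64970350 (5p) and chr5:64970364-64970385 (3p) on the plus strand. It is printed as a repeat-bearing miRNA from elsewhere.

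miR-574-3p: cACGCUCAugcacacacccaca
miR-574-5p: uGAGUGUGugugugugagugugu

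Its 3p arm, with a CA run of 7 bases, had a scaled log2 ratio of 5.56 ± 0.14, and its 5p arm, with a UG run of 13, had 2.82 ± 0.11. In the scaled values both were higher in the MSC+LLC group, and without scaling the 5p arm turned to the other side because the shift of 3.53 exceeds its ratio. There were 6 miRNAs with a CA run of 7 bases or more, the 4 members, miR-574-3p and miR-672-3p, and the last was detected on neither array. Of the 11 miRNAs with a run of 6, the 2 measured on both arrays had scaled log2 ratios of -0.71 (miR-362-3p) and 0.15 (miR-342-3p). Of 12 miRNAs with a UG run of 7 or more, 6 were measured on both arrays, and their scaled log2 ratios ran from 1.07 to 2.82, all of them below the shift.

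The other families with hairpins in the Sfmbt2 cluster, miR-297 and miR-669, had 26 members on the array. On each array 10 of them were detected, 6 on both. The scaled ratio or its bound was at least 2-fold higher for 10 of the 14 detected, beside 16.0% of all detected miRNAs, and at least 2-fold lower for none, beside 5.38%, with a median log2 ratio of 2.46 and a range of 2.02 to 6.63 over the 6. By arm, 6 of 12 3p arms and 3 of 10 5p arms on the array were at least 2-fold higher, beside 45 of 785 3p arms and 22 of 775 5p arms of all miRNAs. The highest, miR-669p-3p at 6.63 ± 0.15, ranked second of all miRNAs, and its 3 probes lay between 6.58 and 6.69. The probes of miR-669f-3p differed, at 1.34 and 3.98. Values of these families under about 3.53 would turn sign without scaling, as those of the 5p members of miR-466 did.

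The values deposited by the authors treat undetected miRNAs in a way that matters for these families. Their log2 table holds a floor value of -10.34 for LLC and -6.80 for MSC+LLC. The 15 members detected on neither array here are listed at the floor in both groups, and thus appear 3.54 higher in the MSC+LLC group. The 6 members detected only on the MSC+LLC array are listed between 10.2 (miR-467e-3p) and 10.8 (miR-466m-3p) higher on the log2 scale, against bounds of 3.75 and 4.28 from the intensities. For the 3 members detected here on the LLC array only, where the intensities gave no direction, the listed differences go both ways. For miR-467c-5p, at the floor for MSC+LLC, it is -2.62, whereas miR-466c-5p and miR-466j are listed above the floor in both groups and differ by 2.08 and 1.52.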

How the data were processed

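Exosomal RNA of 1 LLC and 1 MSC+LLC serum sample (100 ng each, per the labels) was labelled with Cy3 and hybridized to Agilent mouse miRNA arrays on the same slide. The authors' scanner files hold background-subtracted spot intensity from Feature Extraction (the headers name version 11.5.1.1 and the labels 10.7). The deposited series table holds log2 values from GeneSpring, whose settings were not stated.

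Groups came from the sample titles. The members and lists were chosen with earlier results of these data known. Outlier spots (4.48% of the 1050 member spots for LLC, 4.86% for MSC+LLC) were dropped, and no spot reached saturation. Spots of a probe (7 to 15 for members) were averaged. Detection of a probe required that over 50% of its remaining spots be flagged well above background, and a miRNA needed 1 such probe. Signals were divided by their array's 75th percentile over probes detected on both. Log2 ratios were averaged per miRNA over its probes detected on both arrays, and its other probes were then left out. For a probe detected on 1 array, the bound set its signal against the higher of the lowest detected signal and its own signal on the other, averaged on the log2 scale over such probes, with none given under 1-fold. Named with values were all members detected on either array, miR-574 and up to 5 miRNAs of the miR-297 and miR-669 families. Outside that rule, marker miRNAs were named, as were miR-362-3p, miR-342-3p and miR-672-3p for their CA runs. The number of arrays limits the precision. No test was run. Alternatives were other scales, detection rules, spot summaries, background correction (normexp, offset 50), fold thresholds of 4 and 1.5 and the deposited values; the labelling or hybridization spike-ins alone were chosen after seeing the data. The functions were tested on simulated data. RefSeq tables (GRCm38.p6) gave names, neighbouring genes and mature sequences. The probe names come from a design on another build. Software was R 4.3.3 (limma 3.58.1) and Python 3.11.15 (numpy 2.4.6, pandas 2.3.3, matplotlib 3.10.9).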

Additional observations from a re-analysis of the deposited data

How the results depend on the processing

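The median log2 ratio of the members measured on both arrays (5.56) stayed above 0 under every alternative. On the labelling spike-ins it was 3.35, on all 4 spike-ins together 2.67 and on the hybridization spike-ins 1.99. It was 2.03 without scaling, 4.34 on the all-probe 75th percentile, 4.11 with normexp (offset 50) and 4.93 in the authors' deposited values. It moved by less than the SD over spots with the other alternatives, leaving the repeat families out of the scale (5.67) included. These medians are not all over the same members. In place of 11 there were 13 in the deposited values and with the summed signal per miRNA of the scanner software. There were 6 when all spots had to be well above background. The count of members at least 2-fold higher (17) was 11 with all 4 spike-ins, 6 with the hybridization spike-ins and 6 without scaling. Over all miRNAs the count (83) was 19, 11 and 11 under these settings. Under the other alternatives the count of members lay between 14 and 19. The count of members at least 2-fold lower (0) became 1 with the hybridization spike-ins, without scaling and in the deposited values. Over all miRNAs that count (28) became 396, 388 and 354. Members detected on the LLC array (14) fell to 9 when all spots had to be well above background. Those detected on the MSC+LLC array (17) were 15 under that rule and 19 by the detection flag of the scanner software.

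Among the miR-466 and miR-467 members, the ratios that reversed were those of 5p arms, under 4 of these scales. The log2 ratio of miR-466f-5p was -0.28 with all 4 spike-ins, -0.96 with the hybridization spike-ins and -0.92 without scaling. That of miR-466m-5p was -0.31, -0.98 and -0.94, and that of miR-466h-5p was -0.71, -1.39 and -1.35, with -0.036 for the labelling spike-ins. That of miR-466i-5p was -0.0060 with the hybridization spike-ins. The 3p arm exceeded the 5p arm under every setting that gave both, by 1.85 to 3.80 for miR-466f, 1.94 to 4.15 for miR-466h and 1.36 to 3.29 for miR-466i, lowest with normexp. Spike-in and unscaled values change the scale by construction, and otherwise the cause was not tested. Signals near background on the LLC array also limit the ratios. No paired analysis was possible because the design held a lone array per group.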
